A study of Mus musculus with 9 samples.

Results

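The genes described here are 43 ribosome biogenesis and RNA polymerase I genes, which make and process ribosomal RNA and assemble it into ribosomal subunits. They were chosen by gene name from a table of 20087 named mouse genes, as growth genes that have been tied to the transcription factor Myc. The rule used no measured value, but earlier results of these data were known when the members were chosen. All 43 were in the table and all 43 were tested. Polyadenylated RNA had been sequenced from B6D2F1 embryos at E2.75, around the morula stage, with 3 libraries in each of 3 groups. Every embryo had received small interfering RNA (siRNA) as a zygote, also those of the control group. In the Hdac1/2 cKD group the siRNA targeted both histone deacetylase genes, Hdac1 and Hdac2, together. In the Sin3a KD group it targeted Sin3a, which encodes a corepressor scaffold bound by both enzymes. The NC group received a nonspecific siRNA and is labelled wild type, and it was the control of both comparisons against NC, so those comparisons are not independent. Each library came from a pool of 60 embryos, so differences between single embryos cannot be seen, and the labels do not say whether the 3 pools of a group came from separate collections. The p-values therefore measure the spread between these pools, which may be technical.

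Ribosome production starts in the nucleolus, where RNA polymerase I, brought to the repeated ribosomal DNA by Ubtf and Rrn3, copies 1 long precursor RNA. Small nucleolar ribonucleoproteins then modify that precursor: box C/D particles guide methylation and box H/ACA particles guide the change of uridine to pseudouridine. A large assembly called the small subunit processome, and a separate set of large subunit factors, cut and fold the precursor and load ribosomal proteins. In mouse embryos before implantation, nucleoli mature from precursor bodies as transcription of ribosomal RNA begins, and Myc is known in other mouse and human cells as an activator of many of these genes.

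The values are normalised counts, that is read counts per gene divided by a library factor, and they added up to between 11923010 and 13478587 per library. Depth, estimated from the steps between low values, ran from 8440000 reads in NC replicate 3 to 16900000 in NC replicate 1. NC replicate 3 stood apart, with 28.4% of genes at 0 (13.2% to 23.4% elsewhere) and a score of 96.6 on the first principal component (16.8 and 20.7 in the other NC libraries). Of 10 morula markers, 7 were called lower in Hdac1/2 cKD and 2 in Sin3a KD than in NC (limma, adjusted p below 0.05). Beside these, 7.8% and 4.36% of all tested genes were called lower. By sign alone, 10 markers were below NC and 0 above in Hdac1/2 cKD, and 7 below and 3 above in Sin3a KD. The summed level of the 10 markers was 34337 to 37456 in Hdac1/2 cKD, 46245 to 50423 in Sin3a KD and 48332 to 53159 in NC. The summed levels of oocyte and maternal markers were 326 to 371 in Hdac1/2 cKD, 337 to 370 in Sin3a KD and 264 to 349 in NC, and those of cumulus and granulosa cell markers were 82.4 to 86.6, 73.4 to 84.0 and 24.9 to 51.2 in the same order. No marker in the table was at 0 in every library. Blood cell markers summed to at most 41.0 and fibroblast markers to at most 43.7 in any library, and their part in the results below was not tested. In pooled embryos, fewer cells of a type and less RNA per cell cannot be told apart.

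The targeted genes and Myc set the scene for the 43 genes. Hdac1 had 1052, 1007 and 769.6 normalised counts in Hdac1/2 cKD libraries, 1333, 2597 and 1802 in Sin3a KD libraries and 6245, 4925 and 5536 in NC libraries, so its mean was 16.9% of NC in Hdac1/2 cKD and 34.3% in Sin3a KD (adjusted p = 0.00297). A near-identical copy of Hdac1, Gm10093, is in the table and may share its reads. Hdac2 was at 13.3% of the NC mean in Hdac1/2 cKD, and Sin3a at 29.0% in Sin3a KD. Myc had 90.8, 114 and 65.1 normalised counts in Hdac1/2 cKD libraries, 432, 307 and 327 in Sin3a KD libraries and 713, 543 and 500.1 in NC libraries. The 3 groups did not overlap for Myc. It fell in Hdac1/2 cKD to 15.3% of the NC mean (log2 fold change -2.71, SE 0.24, adjusted p = 1.58e-05, limma with Benjamini-Hochberg adjustment over all tested genes). In Sin3a KD its mean was 60.7% of NC and did not pass (log2 fold change -0.72, adjusted p = 0.0828), and the knockdowns differed from each other (-1.99, adjusted p = 0.000145).

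In Hdac1/2 cKD the 43 genes stayed close to their NC values. None rose, 4 fell (Nle1, Nhp2, Ubtf and Nop58) and 39 did not pass, so 9.3% were called, against 15.6% of all 13343 tested genes in either direction and 7.8% called lower. The count of 0 higher came from limma, and 0 members were higher at an unadjusted p below 0.05, where 15 were lower. The share of all tested genes at that unadjusted p was not counted, here or below, so these counts have no background beside them. No member had a log2 fold change of 1 or more in size, against 16.9% of all tested genes. All tested genes include many of lower level and spread more between replicates, so these shares are not like for like, here and in the comparisons below. The median log2 fold change of the 43 genes was -0.13, with 31 below 0 and 12 above, against a median of 0.03 over all tested genes. For 42 of the 43 the 95% confidence interval of the change lay within 2-fold in either direction, and for 34 within 1.5-fold. The exception to the 2-fold bound was Nolc1, the noisiest member. With NC replicate 3 left out at the reported scaling, Nle1, Ubtf, Utp6 and Polr1a were called lower. With every library set to the same total and NC replicate 3 left out, an alternative chosen after seeing the data, 5 members were called, of which Polr1c and Ncl were higher and Nle1, Utp6 and Polr1a lower. Nle1 alone was called without trend and robust variances, with sequencing lane as a term, or after dropping the 2 libraries that were alone on a lane.

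In Sin3a KD none of the 43 genes rose, 3 fell (Rrn3, Gnl3 and Npm1) and 40 did not pass. That is 6.98% of the members, beside 7.96% of all tested genes called in either direction and 4.36% called lower. At an unadjusted p below 0.05, 0 members were higher and 5 lower in the limma test. None of the 3 calls held in those same 3 fits. No member reached a log2 fold change of 1 in size, which 12.8% of all tested genes did. The median was -0.07, with 27 members below 0 and 16 above, against 0.03 over all tested genes. The 95% interval lay within 2-fold for 41 members, all but Rrn3 and Nolc1, and within 1.5-fold for 37. In the reported fit the shares called in both comparisons were near or below those of all genes. The share called lower was somewhat above that of all genes in each. With only genes of a mean of at least 50 tested, 5 of 43 members and 1100 of 9757 genes were called lower in Hdac1/2 cKD. In Sin3a KD these were 3 of 43 and 662 of 9757, so the shares called lower were then close.

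Set directly against each other, the knockdowns differed in 9 members. Rrn3, Gnl3 and Ncl were higher in Hdac1/2 cKD than in Sin3a KD, and Nhp2, Ubtf, Rrp9, Nop16, Polr1b and Rrp12 were lower. These are 20.9% of the members, against 17.3% of all tested genes, and 14.0% against 8.78% for those called lower. With only genes of a mean of at least 50 tested, 9 of 43 members and 2381 of 9757 genes were called. Of these, 6 members and 1248 genes were lower. The median log2 difference was -0.02 over all 43 genes, with 19 above 0 and 24 below, and 0.01 over all tested genes. No member differed by a log2 fold change of 1 or more, against 15.6% of all tested genes, and the 95% interval lay within 2-fold for all 43 and within 1.5-fold for 31. In all, 12 different members were called in at least 1 of the 3 comparisons.

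**Figure D1:**
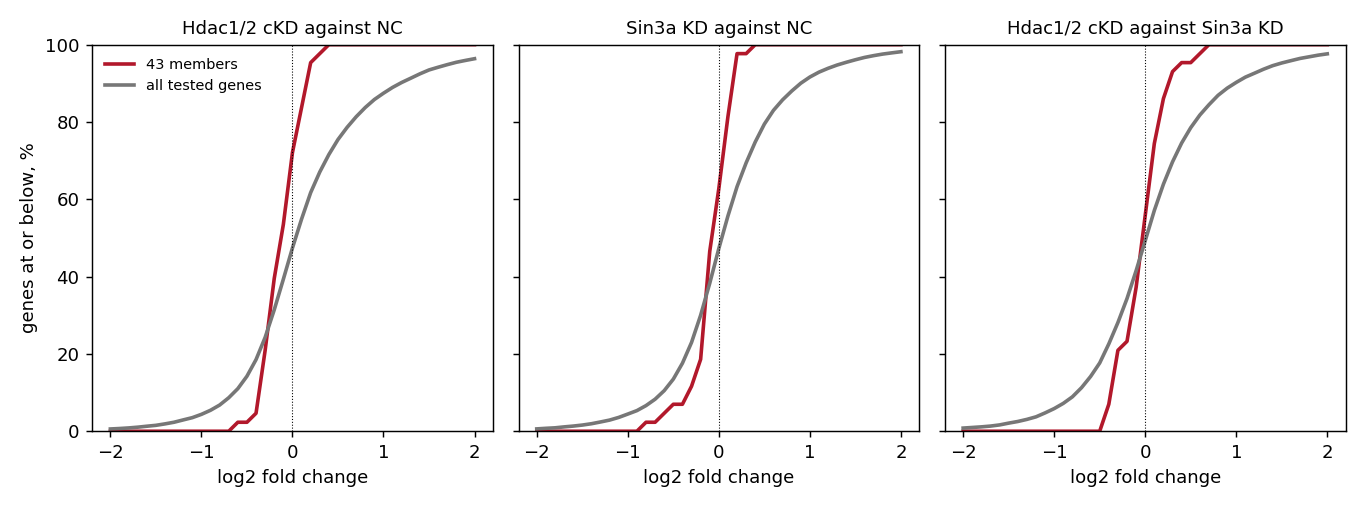
Cumulative share of genes (vertical axis, %) at or below each log2 fold change (horizontal axis) for the 43 members in red and all tested genes in grey, in the panels for Hdac1/2 cKD against NC, for Sin3a KD against NC and for the pair of knockdowns. The red curve climbs from 0 to 100% between -1 and 1 in each panel, while the grey curve has tails beyond those values. All tested genes include many of lower level, which spread more between replicates.

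The size of these changes depended on how libraries were scaled. With every library set to the same total, the median of all tested genes shifted by 0.11 in Hdac1/2 cKD against NC and by 0.09 in Sin3a KD against NC on the log2 scale. The genes called were then 1386 higher and 675 lower, in place of 1042 and 1041, in Hdac1/2 cKD, and 741 higher and 425 lower, in place of 480 and 582, in Sin3a KD. The median of the 43 genes became -0.02 in Hdac1/2 cKD and turned positive, 0.02, in Sin3a KD. With that scaling Nle1 was the only member called in Hdac1/2 cKD, and Rrn3, Gnl3 and Npm1 were still called lower in Sin3a KD. Summed over all 43 genes, their share of each library's total was 1.42% to 1.48% in Hdac1/2 cKD, 1.36% to 1.41% in Sin3a KD and 1.41% to 1.52% in NC.

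**Figure D2:**
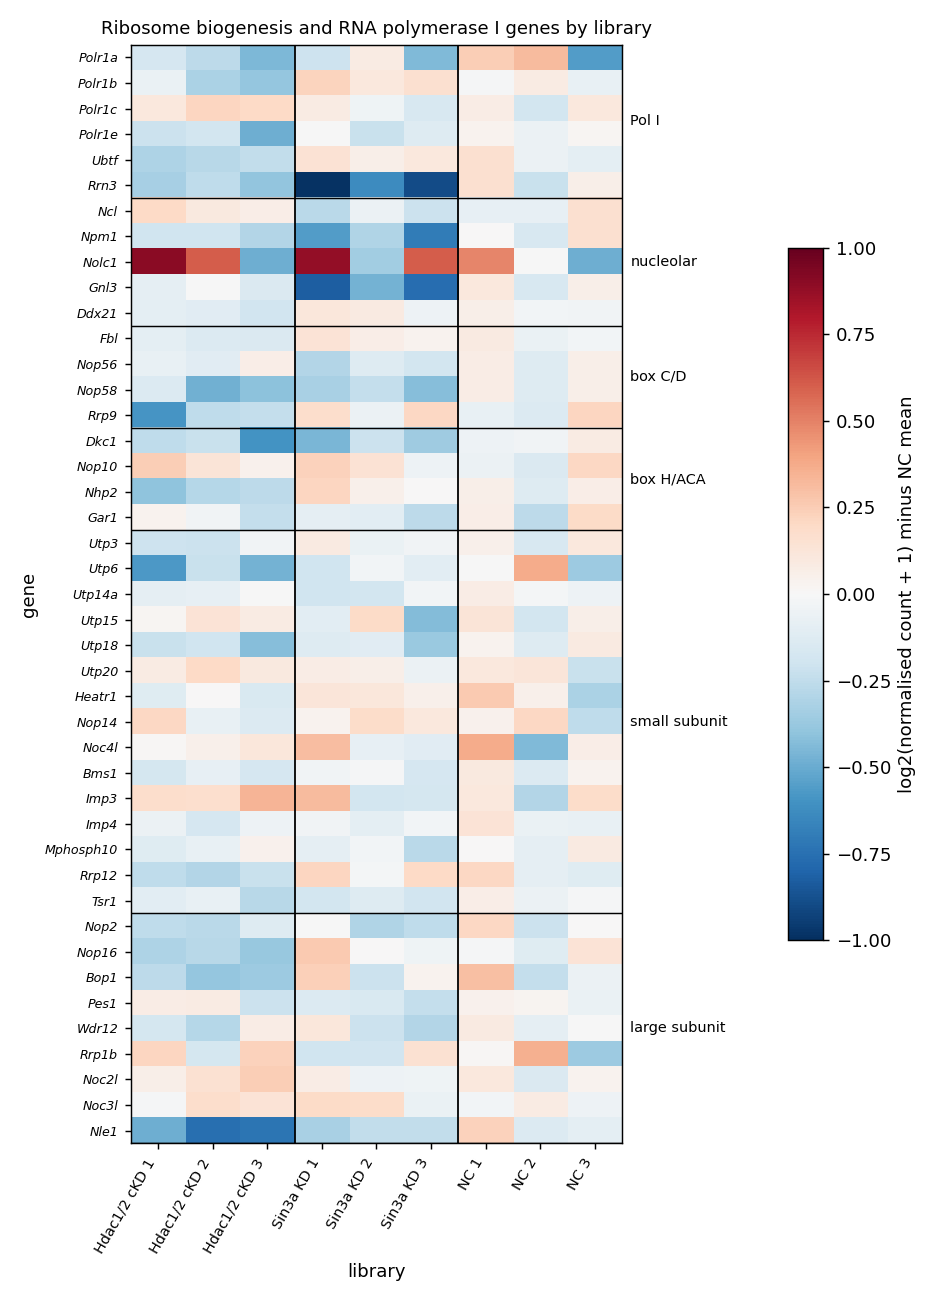
Log2(normalised count + 1) minus the NC mean (colour, blue lower and red higher) for the 43 genes (rows, grouped by role) in the 9 libraries (columns, Hdac1/2 cKD, Sin3a KD, NC). Rrn3 and Gnl3 are blue in all 3 Sin3a KD libraries, Nle1 in all 3 Hdac1/2 cKD libraries, and Nolc1 varies within every group.

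Myc and its partner Max bind the letters CACGTG, the canonical E-box, and promoters of 5 members that hold it are shown, whether or not the gene was called. In the RefSeq promoter table (GRCm38.p6, 250 bases before to 50 bases after the start), 38 of the 43 members have an entry, while Npm1, Bop1, Utp6, Fbl and Rrp12 have none. CACGTG, which reads the same on both strands, was in 8 of the 38 (21.1%): Rrn3, Utp18, Utp20, Imp4, Tsr1, Nop2, Pes1 and Nle1. It was in 8.09% of all 27025 promoters of the table and in 11.7% of the 9721 that belong to tested genes. The 250 bases before the start of Rrn3 hold it at 215 and 48 bases before the start. Those of Imp4, Nop2 and Utp18 hold it 121, 60 and 20 bases before the start, and Nle1 holds it 24 bases after. The lines give the strand of each gene, 5′ to 3′, with the motif in capitals.
Rrn3 (chr16:13780449-13780698, forward strand): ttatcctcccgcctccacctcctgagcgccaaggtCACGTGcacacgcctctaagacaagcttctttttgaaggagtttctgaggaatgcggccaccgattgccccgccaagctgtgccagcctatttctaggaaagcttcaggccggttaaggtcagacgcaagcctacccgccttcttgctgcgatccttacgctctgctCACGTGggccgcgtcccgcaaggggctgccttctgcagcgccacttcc
Imp4 (chr1:34439681-34439740, forward strand): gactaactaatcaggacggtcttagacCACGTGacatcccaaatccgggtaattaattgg
Nop2 (chr6:125131796-125131855, forward strand): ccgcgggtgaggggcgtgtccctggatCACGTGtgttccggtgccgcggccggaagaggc
Utp18 (chr11:93885767-93885826, reverse strand): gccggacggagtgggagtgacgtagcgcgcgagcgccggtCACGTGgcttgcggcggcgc
Nle1 (chr11:82908355-82908384, reverse strand): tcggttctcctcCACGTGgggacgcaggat
Of the 8 members with the motif, Nle1 fell in Hdac1/2 cKD and Rrn3 in Sin3a KD, and the other 6 passed in neither comparison against NC. The 8 include none of the other called members, of which Npm1 and Rrp12 have no promoter entry and could not be searched. A related form, CACGCG on either strand, was in 13 of the 38 (34.2%, against 20.1% of tested genes), and CCGGAAG on either strand, the core of ETS-factor sites, in 15 (39.5%, against 19.6%). A match says only that the letters are there.

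Among the 6 RNA polymerase I genes, 1 fell in each knockdown, and it was a different gene in each. Ubtf, which binds ribosomal DNA and holds it open for the polymerase (chr11:102304560-102319742, GRCm38, reverse strand), had 8992, 9180.0 and 9409 normalised counts in Hdac1/2 cKD libraries, 12289, 11618 and 11949 in Sin3a KD libraries and 12421, 10672 and 10404 in NC libraries. All Hdac1/2 cKD values lay below all others, and the Sin3a KD and NC values overlapped. Ubtf fell in Hdac1/2 cKD to 82.3% of the NC mean (log2 fold change -0.28, SE 0.09, adjusted p = 0.044). In Sin3a KD its log2 fold change was 0.10 (adjusted p = 0.505), and it was lower in Hdac1/2 cKD than in Sin3a KD (-0.38, SE 0.09, adjusted p = 0.00828). The call against NC was lost when any library but NC replicate 2 or NC replicate 3 was left out (adjusted p up to 0.141), while that against Sin3a KD held in all 9 such fits (up to 0.0429). Within sequencing lanes that hold both groups, the Hdac1/2 cKD minus NC difference was -0.23 on lane 2 and -0.15 on lane 3. Each of these lanes held 1 NC library, replicate 2 on lane 2 and replicate 3, which stood apart, on lane 3. All within-lane values against NC, here and below, rest on these single libraries. Between the knockdowns, lane 3 held 1 Hdac1/2 cKD library and 2 Sin3a KD libraries.

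Rrn3, the initiation factor that links RNA polymerase I to its promoter (chr16:13780708-13814839, forward strand), had the largest fall of any member. It had 2886, 3047 and 2773 normalised counts in Hdac1/2 cKD libraries, 1835, 2359 and 1956 in Sin3a KD libraries and 4069, 3128 and 3795 in NC libraries. The 3 groups did not overlap, with Sin3a KD lowest and NC highest. Rrn3 fell in Sin3a KD to 55.9% of the NC mean (log2 fold change -0.84, SE 0.12, 95% interval -1.10 to -0.57, adjusted p = 0.00297). In Hdac1/2 cKD its mean was 79.2% of NC and did not pass (-0.33, adjusted p = 0.0888), and it was higher there than in Sin3a KD (0.51, SE 0.12, adjusted p = 0.0116). The Sin3a KD call held when each library was left out in turn (adjusted p up to 0.0211) and was -0.82 within lane 3. With lane as a factor, its adjusted p was 0.0643. The difference between knockdowns was lost without Hdac1/2 cKD replicate 2 or Sin3a KD replicate 1 (adjusted p up to 0.0616), and was 0.37 within lane 3.

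The 4 genes for polymerase subunits did not pass against NC in either knockdown. Polr1b, the second largest subunit, had 3629, 3056 and 2913 normalised counts in Hdac1/2 cKD libraries, 4439.9, 4098 and 4258 in Sin3a KD libraries and 3774, 4031 and 3619.8 in NC libraries. Its Hdac1/2 cKD values lay below all Sin3a KD values, with a log2 difference of -0.42 (SE 0.10, adjusted p = 0.0118), while against NC the changes were -0.26 in Hdac1/2 cKD (adjusted p = 0.108) and 0.16 in Sin3a KD (adjusted p = 0.348). The difference between knockdowns was lost without Hdac1/2 cKD replicate 2 or 3 or Sin3a KD replicate 1 (adjusted p up to 0.0592). Polr1a, the largest and catalytic subunit, averaged 1306 ± 126 in Hdac1/2 cKD, 1417 ± 263 in Sin3a KD and 1654 ± 498 in NC (mean ± SD, n = 3 each), and its NC libraries spread most of all members there (SD 0.49 on the log2 scale). Polr1c, a subunit shared with RNA polymerase III, averaged 2636 ± 105, 2279 ± 191 and 2349 ± 246 in Hdac1/2 cKD, Sin3a KD and NC. Polr1e, an accessory subunit, averaged 743 ± 83.3, 837 ± 64.6 and 908 ± 31.3 in the same groups. Neither passed in either knockdown. Without NC replicate 3, Polr1a was called lower in Hdac1/2 cKD, both at the reported scaling and at equal totals. At equal totals without that library, Polr1c was called higher.

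Of the 5 nucleolar genes, none passed in Hdac1/2 cKD by limma (1 was lower at an unadjusted p below 0.05) and 2 fell in Sin3a KD. Gnl3, which encodes nucleostemin, a nucleolar GTP-binding protein (chr14:31012433-31019152, reverse strand), had 2928, 3108 and 2809 normalised counts in Hdac1/2 cKD libraries, 1753, 2245 and 1831 in Sin3a KD libraries and 3338, 2785 and 3237 in NC libraries. All Sin3a KD values lay below all others, and the Hdac1/2 cKD and NC values overlapped. Gnl3 fell in Sin3a KD to 62.3% of the NC mean (log2 fold change -0.69, SE 0.12, 95% interval -0.94 to -0.44, adjusted p = 0.00542). Its mean in Hdac1/2 cKD was 94.5% of NC (-0.08, adjusted p = 0.7), and Hdac1/2 cKD was higher than Sin3a KD by 0.61 (SE 0.12, adjusted p = 0.00294). Both calls held when each library was left out in turn (adjusted p up to 0.0308 against NC and 0.0197 between knockdowns). With lane as a factor the adjusted p values were 0.0934 and 0.0521, and within lane 3 the log2 differences were -0.67 and 0.47. Gnl3 overlaps exons of Pbrm1 on the opposite strand, and the counting's strand setting is not stated. Pbrm1 averaged 768 normalised counts in Hdac1/2 cKD, 639 in Sin3a KD and 736 in NC.

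Npm1, which encodes nucleophosmin, the abundant protein of the outer granular zone of the nucleolus (chr11:33152287-33163206, reverse strand), had 39635, 39488 and 36972 normalised counts in Hdac1/2 cKD libraries, 30846, 36819 and 28018 in Sin3a KD libraries and 45549, 40562 and 50659.5 in NC libraries. Neither knockdown overlapped NC, and Sin3a KD was lowest. Npm1 fell in Sin3a KD to 70.0% of the NC mean (log2 fold change -0.52, SE 0.10, adjusted p = 0.0106). In Hdac1/2 cKD the change was -0.23 (adjusted p = 0.156), and between the knockdowns 0.29 (adjusted p = 0.0757). The Sin3a KD call was lost without Sin3a KD replicate 1 or 3 (adjusted p up to 0.0554), and the difference within lane 3 was -0.66.

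Ncl, which encodes nucleolin, averaged 26133 ± 1267 in Hdac1/2 cKD, 21175 ± 1589 in Sin3a KD and 24037 ± 2353 in NC. It did not pass against NC, although it was called higher in Hdac1/2 cKD without NC replicate 3 at equal totals. Between the knockdowns it was higher in Hdac1/2 cKD (0.31, SE 0.09, adjusted p = 0.0306), a call lost without any 1 Hdac1/2 cKD library or Sin3a KD replicate 1 or 3 (adjusted p up to 0.131). Ddx21, an RNA helicase that acts in ribosomal RNA transcription and processing, had 10139, 10037 and 9528 normalised counts in Hdac1/2 cKD libraries, 11789, 11576 and 10514 in Sin3a KD libraries and 11349, 10650.0 and 10625 in NC libraries, with a change of -0.14 in Hdac1/2 cKD (adjusted p = 0.289). The Hdac1/2 cKD values all lay below the NC values. Nolc1, a chaperone of small nucleolar particles, was the lowest member per length and had 458, 372 and 174, 449, 192 and 372 and 343, 243 and 174 normalised counts in Hdac1/2 cKD, Sin3a KD and NC libraries. It spread widely within each group, and its 95% interval in Hdac1/2 cKD ran -0.54 to 1.23 on the log2 scale, so a 2-fold rise lay within it.

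Of the 4 box C/D genes, 1 fell in Hdac1/2 cKD and none passed in Sin3a KD by limma (1 was lower at an unadjusted p below 0.05). Nop58, a core protein of all box C/D particles (chr1:59684971-59719044, forward strand), had 6893, 5429.8 and 5699 normalised counts in Hdac1/2 cKD libraries, 6049, 6407 and 5633 in Sin3a KD libraries and 7970.4, 6897 and 7858 in NC libraries. Both knockdowns overlapped each other and neither overlapped NC, although Hdac1/2 cKD replicate 1 lay just below the lowest NC library. Nop58 fell in Hdac1/2 cKD (log2 fold change -0.34, SE 0.11, adjusted p = 0.0448), with nearly the same value in Sin3a KD, which did not pass (-0.33, adjusted p = 0.0739). The difference between the knockdowns was -0.01, with a 95% interval of -0.24 to 0.22. The Hdac1/2 cKD call was lost without Hdac1/2 cKD replicate 2 or 3, any 1 Sin3a KD library, or NC replicate 1 or 3 (adjusted p up to 0.18), and the within-lane differences were -0.17 on lane 2 and -0.46 on lane 3.

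Rrp9, a protein specific to the U3 particle that directs the first cuts of the precursor, had 1287, 1625 and 1643 normalised counts in Hdac1/2 cKD libraries, 2185, 1857 and 2234 in Sin3a KD libraries and 1838, 1761 and 2253 in NC libraries. Hdac1/2 cKD lay below both other groups without overlap, and was lower than Sin3a KD by test (-0.47, SE 0.13, adjusted p = 0.0285) but did not pass against NC (-0.36, adjusted p = 0.0869). The difference between knockdowns was lost without Hdac1/2 cKD replicate 1 or Sin3a KD replicate 1 or 3 (adjusted p up to 0.132). Nop56, the core partner of Nop58, had 4599.7, 4484 and 5077 in Hdac1/2 cKD, 3961, 4425 and 4278 in Sin3a KD, against 5093, 4431 and 5046 in NC libraries, with -0.20 in Sin3a KD (adjusted p = 0.219). Fbl, fibrillarin, the methyltransferase of these particles, averaged 5163 ± 85.1, 5961 ± 217 and 5647 ± 327 in Hdac1/2 cKD, Sin3a KD and NC and passed in no comparison.

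Of the 4 box H/ACA genes, 1 fell in Hdac1/2 cKD and none passed in Sin3a KD by limma (1 was lower at an unadjusted p below 0.05). Nhp2, an RNA-binding core protein of these particles (chr11:51619735-51623714, forward strand), had 4175, 4518 and 4604 normalised counts in Hdac1/2 cKD libraries, 6382, 5707 and 5515 in Sin3a KD libraries and 5737, 5047 and 5763 in NC libraries. All Hdac1/2 cKD values lay below all others, and Sin3a KD overlapped NC. Nhp2 fell in Hdac1/2 cKD to 80.4% of the NC mean (log2 fold change -0.31, SE 0.10, adjusted p = 0.0393) and was lower than in Sin3a KD (-0.40, SE 0.10, adjusted p = 0.0102). In Sin3a KD against NC the value was 0.09 (adjusted p = 0.614). The call against NC was lost without any 1 Hdac1/2 cKD library, NC replicate 1 or NC replicate 3 (adjusted p up to 0.146), and that between knockdowns without Hdac1/2 cKD replicate 1 or Sin3a KD replicate 1 (up to 0.0614). Within lanes the Hdac1/2 cKD minus NC difference was -0.22 on lane 2 and -0.32 on lane 3. Nhp2 overlaps exons of Rmnd5b on the opposite strand, which averaged 1926 in Hdac1/2 cKD, 1637 in Sin3a KD and 2035 in NC.

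Dkc1, dyskerin, the pseudouridine synthase of the box H/ACA particles, had 2971, 3041 and 2336 normalised counts in Hdac1/2 cKD libraries, 2577, 3054 and 2772 in Sin3a KD libraries and 3428, 3456 and 3749 in NC libraries. All values of both knockdowns lay below all NC values. Neither passed, at -0.36 in Hdac1/2 cKD (adjusted p = 0.0526) and -0.34 in Sin3a KD (adjusted p = 0.0871). With only genes of a mean of at least 50 tested by limma, Dkc1 was called lower in Hdac1/2 cKD (adjusted p = 0.0429). Gar1 had 2075, 1977 and 1719 in Hdac1/2 cKD, 1899, 1879 and 1691 in Sin3a KD, against 2119, 1691 and 2316 in NC libraries, with -0.15 in Sin3a KD (adjusted p = 0.503), a sign that turned without NC replicate 3 at equal totals. Nop10, the smallest of the core proteins, averaged 1157 ± 83.8, 1137 ± 111 and 1056 ± 136 in Hdac1/2 cKD, Sin3a KD and NC.

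The 15 small subunit genes gave no call against NC in either knockdown in the reported limma fit. At an unadjusted p below 0.05, 3 were lower in Hdac1/2 cKD and 0 in Sin3a KD, with none higher in either. Their means ran from 73.4% (Utp6) to 116% (Imp3) of NC in Hdac1/2 cKD and from 86.9% (Utp18) to 109% (Rrp12) in Sin3a KD. For all 15 the 95% interval of the change lay within 2-fold in both knockdowns, and within 1.5-fold for 13 in Hdac1/2 cKD and 15 in Sin3a KD. The 3 genes lower at an unadjusted p were Utp6, Utp18 and Rrp12. Utp6, a processome component of the UTP-B subcomplex, had 1948, 2486 and 2091 normalised counts in Hdac1/2 cKD libraries, 2532, 2839.7 and 2697 in Sin3a KD libraries and 2886, 3748 and 2253 in NC libraries, and -0.42 in Hdac1/2 cKD did not pass (adjusted p = 0.0906). Its lowest NC library, replicate 3, lay among the Hdac1/2 cKD values. Without that library Utp6 was called lower in Hdac1/2 cKD, as it was with the replicate number as a block. Utp18, another UTP-B protein, had 2037, 2071 and 1763 in Hdac1/2 cKD, 2176, 2189.8 and 1834 in Sin3a KD, against 2436, 2176 and 2525 in NC libraries, with -0.28 in Hdac1/2 cKD (adjusted p = 0.112) and -0.20 in Sin3a KD (adjusted p = 0.294). Tsr1, which acts late in small subunit maturation, had 3305, 3369 and 2935 in Hdac1/2 cKD, 3131, 3244 and 3099 in Sin3a KD, against 3711, 3410.0 and 3527 in NC libraries, with -0.17 in Sin3a KD (adjusted p = 0.292). Both knockdowns lay below NC for Tsr1 without overlap.

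Between the knockdowns 1 small subunit gene was called. Rrp12, which helps pre-ribosomes leave the nucleus, averaged 2268 ± 54.5 in Hdac1/2 cKD, 2972 ± 266 in Sin3a KD and 2722 ± 356 in NC. It was lower in Hdac1/2 cKD than in Sin3a KD (-0.39, SE 0.11, adjusted p = 0.0298), a call lost without any 1 Hdac1/2 cKD library or Sin3a KD replicate 1 or 3 (adjusted p up to 0.117). Imp3, Imp4 and Mphosph10, which form a module bound to the U3 RNA, averaged 826 ± 56.8, 1638 ± 76.2 and 1376 ± 83.9 in Hdac1/2 cKD, 706 ± 149, 1678 ± 43.3 and 1308 ± 114 in Sin3a KD, against 710.1 ± 119, 1748 ± 147 and 1427 ± 90.4 in NC. The largest change among these 3 was 0.23 on the log2 scale, for Imp3 in Hdac1/2 cKD, and it did not pass (adjusted p = 0.403). Heatr1, the processome protein that also promotes RNA polymerase I transcription, averaged 5369 ± 304 in Hdac1/2 cKD, 6101 ± 159.6 in Sin3a KD and 5784 ± 1142 in NC. The remaining members of the group, Utp3, Utp14a, Utp15, Utp20, Nop14, Noc4l and Bms1, did not pass in any comparison.

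**Figure D3:**
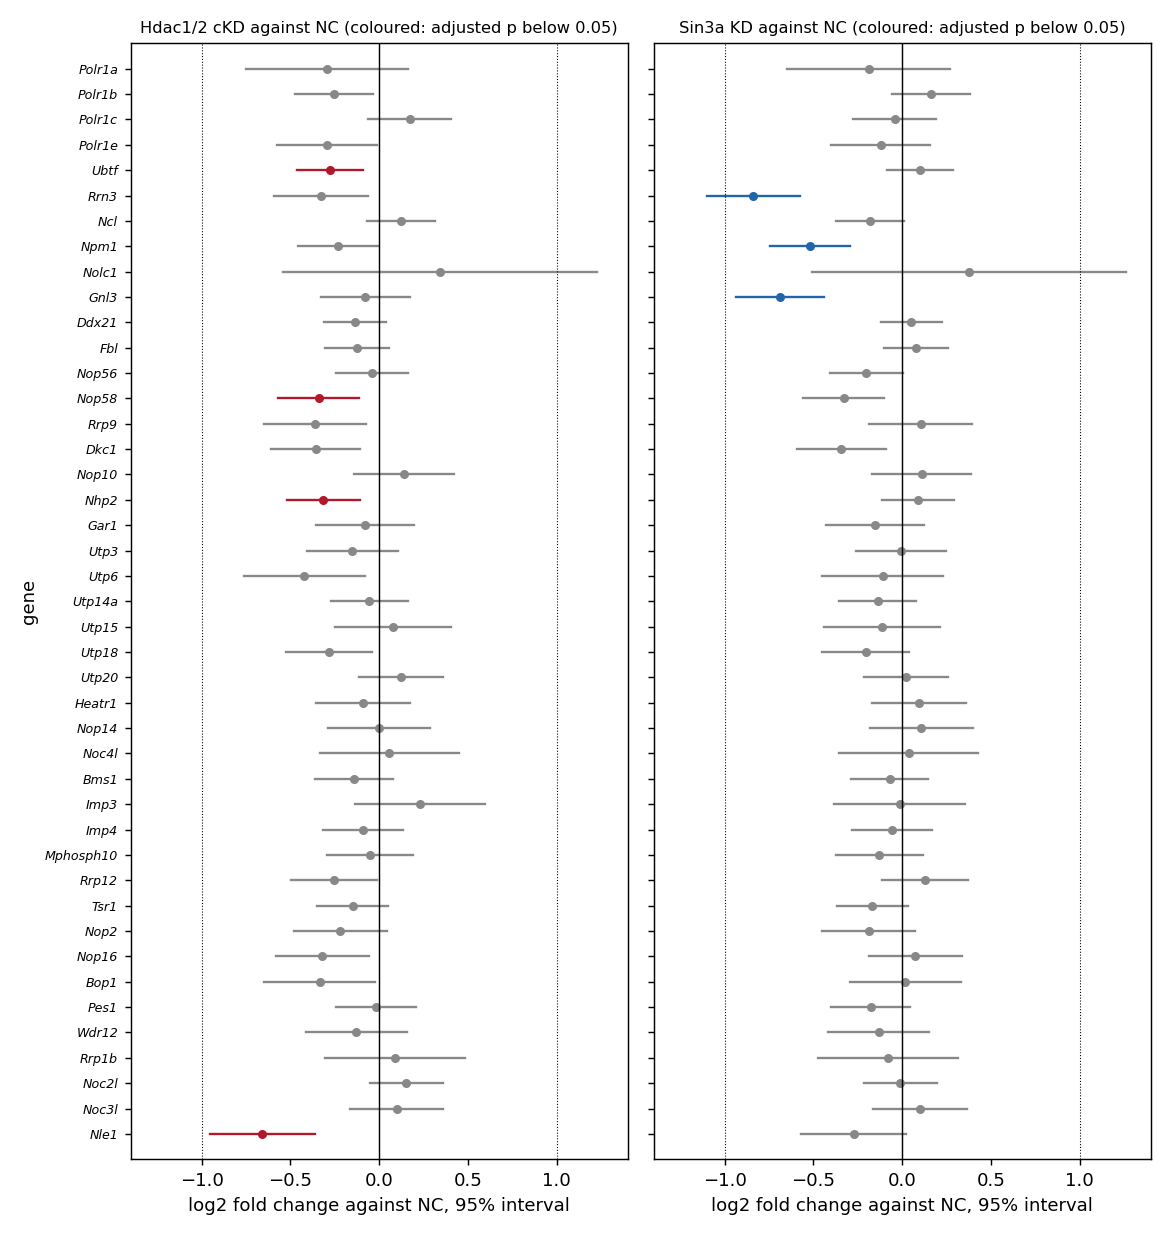
Log2 fold change (horizontal axis, points) with its 95% confidence interval (lines) for each of the 43 genes (rows) in Hdac1/2 cKD and in Sin3a KD against NC, with dotted lines at -1 and 1. Coloured genes have an adjusted p below 0.05: Ubtf, Nop58, Nhp2 and Nle1 in Hdac1/2 cKD, and Rrn3, Npm1 and Gnl3 in Sin3a KD.

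Among the 9 large subunit genes, 1 fell in Hdac1/2 cKD and none passed in Sin3a KD by limma (0 also at an unadjusted p below 0.05). Nle1, a WD-repeat protein that joins large subunit precursors before the AAA-ATPase Mdn1 strips it off (chr11:82900768-82908411, reverse strand), had 721, 598 and 608 normalised counts in Hdac1/2 cKD libraries, 806, 853 and 849.6 in Sin3a KD libraries and 1185, 920.5 and 945 in NC libraries. The groups did not overlap, and Hdac1/2 cKD was lowest. Nle1 fell in Hdac1/2 cKD to 63.2% of the NC mean (log2 fold change -0.66, SE 0.14, 95% interval -0.96 to -0.36, adjusted p = 0.00616). It did not pass in Sin3a KD, at 82.2% of NC (-0.27, adjusted p = 0.251), or between the knockdowns (-0.38, adjusted p = 0.0737). The Hdac1/2 cKD call of Nle1 was the only member call that held under all 20 alternatives tried (adjusted p 0.00481 to 0.0434), and within lanes the difference was -0.49 on lane 2 and -0.64 on lane 3. Nle1 shares exon positions with Fndc8 on the opposite strand, which averaged 2.02 in Hdac1/2 cKD, 3.89 in Sin3a KD and 0.531 in NC. Loss of Nle1 is known in mouse to stop development around implantation.

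Nop16, a nucleolar protein of large subunit precursors, had 1022, 1041 and 970.3 normalised counts in Hdac1/2 cKD libraries, 1510.3, 1269 and 1228 in Sin3a KD libraries and 1249, 1159.9 and 1389 in NC libraries. The Hdac1/2 cKD values lay below all others. The change against NC did not pass (-0.32, adjusted p = 0.0936), and the difference from Sin3a KD did (-0.40, SE 0.12, adjusted p = 0.039), a call lost without any 1 Hdac1/2 cKD library or Sin3a KD replicate 1 or 2 (adjusted p up to 0.178). Pes1, Bop1 and Wdr12 form the PeBoW complex, which large subunit processing needs. Pes1 had 3214, 3231 and 2624 in Hdac1/2 cKD, 2767, 2746 and 2576 in Sin3a KD, against 3142, 3098 and 2907 in NC libraries, with -0.18 in Sin3a KD (adjusted p = 0.322). Its partner Bop1 averaged 1747 ± 81.5 in Hdac1/2 cKD, 2251 ± 349.6 in Sin3a KD and 2232 ± 436 in NC, and Wdr12 1487 ± 190.4, 1487 ± 228 and 1619 ± 102. The 3 partners thus showed changes of -0.02, -0.34 and -0.13 in Hdac1/2 cKD, none of which passed. Nop2, an RNA methyltransferase, averaged 2717 ± 144 in Hdac1/2 cKD, 2784 ± 314 in Sin3a KD and 3183 ± 466 in NC, and Rrp1b, Noc2l and Noc3l passed in no comparison.

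**Figure D4:**
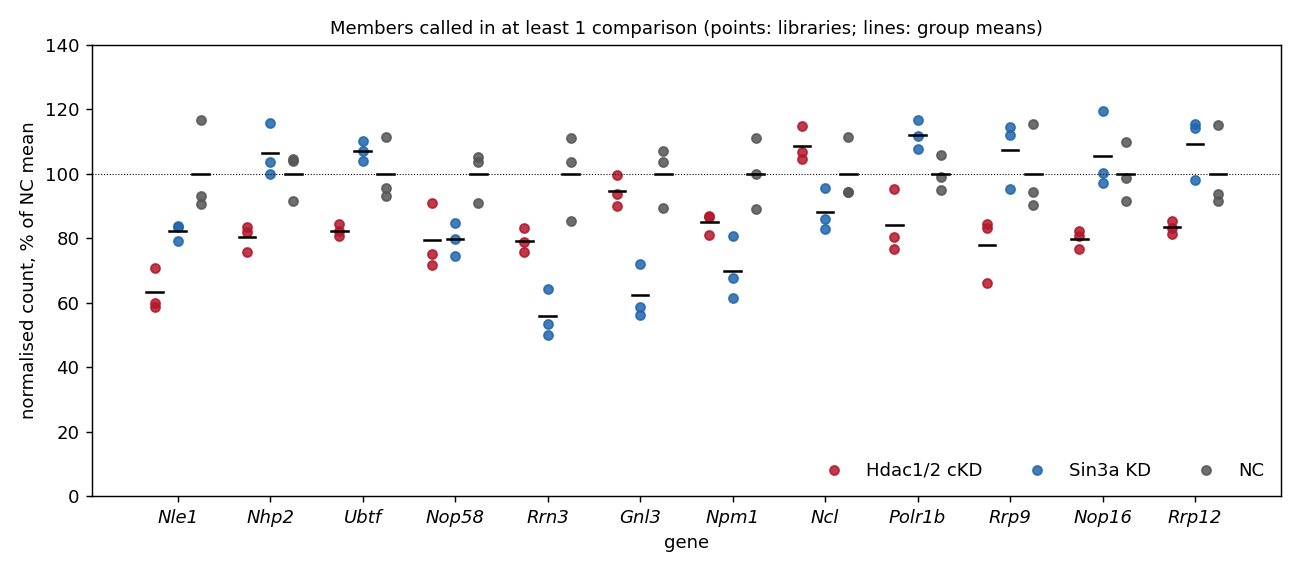
Normalised count as a percentage of the NC mean (vertical axis, from 0) for the 12 members called in at least 1 comparison, with 1 point per library (Hdac1/2 cKD left, Sin3a KD middle, NC right) and a line at each group mean. Rrn3 and Gnl3 are lowest in Sin3a KD (means of 55.9% and 62.3%) and Nle1 in Hdac1/2 cKD (63.2%).

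The members also differed widely in level. Per kilobase of coding sequence, Npm1 had the highest NC mean at 52043 normalised counts, followed by Nhp2 at 12017 and Ncl at 11333. The median member had 1369, and Nolc1 was last at 120. The members were more even across replicates than most genes: the median SD between replicates on the log2 scale was 0.0938 in Hdac1/2 cKD, 0.111 in Sin3a KD and 0.14 in NC, against 0.225, 0.239 and 0.314 over all tested genes, which include many of lower level. In single libraries, the median of the 43 genes relative to the NC mean was -0.10, -0.14 and -0.17 in Hdac1/2 cKD, -0.003, -0.07 and -0.11 in Sin3a KD, against 0.07, -0.09 and 0.02 in NC. NC replicate 2 thus lay among the Sin3a KD libraries on this measure. Reads of 13 members could be mixed with those of a gene on the opposite strand at the same exon positions, and Npm1, Fbl and Imp3 have a near-identical copy in the table. The copy of Npm1 (Gm5611) reached at most 1.56 normalised counts in any library, and that of Imp3 at most 34.5. Fbl had 2 such matches, Gm5812, at most 68.7, and Tulp4. Tulp4 averaged 861 in Hdac1/2 cKD, 795 in Sin3a KD and 686 in NC.

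Other genes of the same pathways were counted from lists written from general knowledge. Of 19 other RNA polymerase I and ribosomal DNA genes, none rose and 5 fell in Hdac1/2 cKD (median log2 fold change -0.13), and 1 rose and 3 fell in Sin3a KD (median -0.10). The shares called were 26.3% in Hdac1/2 cKD and 21.1% in Sin3a KD, against 15.6% and 7.96% of all tested genes, and the shares called lower were 26.3% and 15.8%, against 7.8% and 4.36%. Taf1d and Taf1a, subunits of the SL1 promoter factor, fell in Hdac1/2 cKD, Taf1d to 342 ± 33.6 against 673 ± 216 in NC (-0.93, adjusted p = 0.00929) and Taf1a to 646 ± 39.1 against 945 ± 68.1 in NC (-0.55, adjusted p = 0.0114). Polr2l, a small subunit common to all 3 nuclear RNA polymerases, fell too (-0.58, adjusted p = 0.00937). In Sin3a KD, Cd3eap, a subunit of RNA polymerase I, rose to 1136 ± 92.9 against 603 ± 89.2 in NC (0.92, adjusted p = 0.0035), while it averaged 572 ± 34.0 in Hdac1/2 cKD. Taf1c (-0.55, adjusted p = 0.0135) and Taf1d (-0.84, adjusted p = 0.0271), both SL1 subunits, fell in Sin3a KD. Without 1 library, the calls of Taf1a (Hdac1/2 cKD replicate 1), Taf1c (Sin3a KD replicate 1 or 3) and Taf1d in Sin3a KD (any 1 Sin3a KD library or NC replicate 3) were lost, with adjusted p up to 0.0508, 0.0722 and 0.104.

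Of 43 other small subunit genes, 11 fell and none rose in Hdac1/2 cKD, and 1 rose and 1 fell in Sin3a KD. The shares called were 25.6% and 4.65%, against 15.6% and 7.96% of all tested genes. The shares called lower were 25.6% and 2.33%, against 7.8% and 4.36%. The medians of the list were -0.22 and -0.13. The lowest adjusted p in Hdac1/2 cKD belonged to Ddx47, an RNA helicase (-0.63, adjusted p = 0.00184), Rcl1, a processome protein (-0.58, adjusted p = 0.002), and Tsr2, an escort of a small subunit protein (-0.52, adjusted p = 0.00339). In Sin3a KD, Pwp2, the scaffold of UTP-B, rose (0.55, adjusted p = 0.0106) and Nol11 fell (-0.39, adjusted p = 0.0429). Of 52 other large subunit genes, 6 fell in Hdac1/2 cKD and 4 in Sin3a KD, with none higher in either (medians -0.15 and -0.11). These are 11.5% and 7.69% of the list, against 7.8% and 4.36% of all tested genes called lower. Called in either direction were 15.6% and 7.96% of all tested genes. Rsl24d1, a placeholder for a ribosomal protein (-0.57, adjusted p = 0.00214), Nifk (-0.44, adjusted p = 0.00919) and Nol8 (-1.01, adjusted p = 0.0121) were those named by lowest adjusted p in Hdac1/2 cKD. Las1l, the endonuclease that cuts the second internal spacer (-0.60, adjusted p = 0.00845), Gnl3l, the closest relative of Gnl3 (-0.46, adjusted p = 0.0162), and Nol8 (-1.06, adjusted p = 0.0177) were those in Sin3a KD. The Sin3a KD calls of Pwp2 and Gnl3l were lost without Sin3a KD replicate 1 or 3 (adjusted p up to 0.0583 and 0.0792), that of Gnl3l also without NC replicate 1, that of Nol8 without Sin3a KD replicate 1 or NC replicate 3 (up to 0.0751), and that of Nol11 without any 1 library but NC replicate 1 (up to 0.17). Nol8 averaged 451 ± 36.8 in Hdac1/2 cKD, 460.3 ± 189.7 in Sin3a KD and 914 ± 135 in NC.

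Of 13 genes of the nuclear RNA exosome, which trims the precursor, 2 fell in Hdac1/2 cKD, Exosc9 (-0.48, adjusted p = 0.0267) and Exosc5 (-0.51, adjusted p = 0.0385), and Mphosph6 fell in Sin3a KD (-0.55, adjusted p = 0.0225). The shares called lower were 15.4% in Hdac1/2 cKD and 7.69% in Sin3a KD, against 7.8% and 4.36% of all tested genes. No exosome gene rose, and 15.6% and 7.96% of all tested genes were called in either direction. Each of these 3 calls was lost without any of several single libraries: all 3 Hdac1/2 cKD libraries, NC replicate 2 and NC replicate 3 for Exosc9 (adjusted p up to 0.105), all 3 Hdac1/2 cKD libraries, Sin3a KD replicate 3, NC replicate 1 and NC replicate 3 for Exosc5 (up to 0.129), and Sin3a KD replicates 1 and 3 and NC replicates 1 and 3 for Mphosph6 (up to 0.101). Among 11 genes of the Myc network, 2 rose and 3 fell in Hdac1/2 cKD, and 1 rose and 1 fell in Sin3a KD. These are 45.5% and 18.2% of the list, against 15.6% and 7.96% of all tested genes called in either direction. Mxi1, an antagonist that competes with Myc for Max, rose in Hdac1/2 cKD to 603 ± 48.0 against 226 ± 9.02 in NC (1.41, adjusted p = 0.000155). Mnt, another antagonist, fell in Hdac1/2 cKD (-0.64, adjusted p = 0.00378) and in Sin3a KD (-0.60, adjusted p = 0.0111). Mxd4, of the same family, rose in Sin3a KD to 234 ± 11.6 against 84.8 ± 41.6 in NC (1.56, adjusted p = 0.0105).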

How the data were processed

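Polyadenylated RNA was sequenced from pools of 60 embryos, 3 libraries in each of 3 groups. Salmon counted reads per transcript, per the labels, and the submitters' processing notes also name DESeq2 and build GRCm38. Their versions, the annotation and the strand setting are not stated there. The signal values the authors deposited were read as gene-level counts divided by DESeq2 normalisation factors, from those notes and the values themselves. Between 55.1% and 68.0% of low values lay within 0.1 of a whole step, so whole reads were not recovered and no count model was used. Spike-in RFP and GFP RNA is mentioned per the labels, but the table has 0 entries for either, so total RNA per embryo cannot be compared. A line without a gene name (0.00543% to 0.00896% of each library) was left out.

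The 13343 genes that reached 10 in 3 or more of the 9 libraries were tested on log2(value + 1), which understates the change of low genes, with limma 3.58.1 (R 4.3.3; trend and robust variances, 6 residual degrees of freedom, all 9 libraries in 1 fit). The Benjamini-Hochberg adjustment ran over all tested genes, and a call needed an adjusted p under 0.05. Members, lists, tests and alternatives were chosen with earlier results of these data known. Values in every library are given for the 2 members of each role group with the lowest adjusted p in each comparison against NC and for up to 6 called between the knockdowns, and up to 3 called genes are named per other list and comparison. Examples beyond this rule were chosen after their values were seen. Lanes, read from the library descriptions, were 2, 2 and 3 for Hdac1/2 cKD, 4, 3 and 3 for Sin3a KD and 5, 2 and 3 for NC. Coordinates and coding lengths are from GENCODE vM21 (GRCm38), and copies are matches of at least 95% identity over 50% of a transcript (BLAST 2.17.0).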

Additional observations from a re-analysis of the deposited data

How the results depend on the processing

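Members called in Hdac1/2 cKD against NC numbered 4 in the reported fit, 2 with no filter and 5 with only genes of a mean of at least 50. They numbered 1 each with equal totals, without trend and robust variances, with 2 groups only, with a lane term, and after dropping the 2 libraries that were alone on a lane. Leaving out 1 library gave 1 to 5. Under the same changes Sin3a KD against NC gave 3 members, then 0 in limma without trend and robust variances, 0 with a lane term and 0 after dropping those 2 libraries. Leaving out 1 library gave 2 to 4. At an unadjusted p below 0.05 the 3 fits with 0 calls held 5, 5 and 3 members. Hdac1/2 cKD against Sin3a KD gave 9, then 12 with 2 groups only, 1 without trend and robust variances and 1 with a lane term. It gave 2 after dropping those 2 libraries, and 2 to 10 without 1 library. Over all tested genes, Hdac1/2 cKD gave 2083 calls, 1369 without trend and robust variances, 1318 after dropping those 2 libraries and 1271 to 2170 without 1 library. Sin3a KD gave 1062 calls, 36 without trend and robust variances, 611 with 2 groups only, 94 with lane, 51 after dropping those 2 libraries and 337 to 1538 without 1 library. The knockdowns differed in 2304 genes, 3077 with 2 groups only, 1002 with lane, 1384 after dropping those 2 libraries and 1426 to 2748 without 1 library. The lane fit has 3 residual degrees of freedom in place of 6, and dropping libraries leaves fewer samples. For the other changes the cause was not tested. The members' median log2 fold change in Hdac1/2 cKD became -0.016 with equal totals and -0.014 with equal totals and no NC replicate 3, an alternative chosen after seeing the data that called 5 members there, Polr1c and Ncl higher and Nle1, Utp6 and Polr1a lower. In Sin3a KD it reversed to 0.024 with equal totals, and Gar1 reversed to 0.042 with equal totals and no NC replicate 3. Other pseudocounts moved no count by more than 1.5 times. Of 16 member calls, 5 held in all 9 fits without 1 library and 1 under all 20 alternatives, and 0 changed sign.

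With the replicate number as a block, 5 members were called in Hdac1/2 cKD, 3 in Sin3a KD and 10 between the knockdowns, and 2140, 1046 and 2372 genes in all. Same-numbered libraries did not deviate together (correlations of -0.019 to 0.058 over 9 pairs), so the numbers were not taken as pairing. The depth was estimated, not given, and the intervals rest on the spread between 3 libraries a group, in which the part of depth was not tested.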
